A study of Mus musculus with 8 samples.

Results

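The genes described are 9 components of the complement system in the ventral prostate, C1qa, C1qb, C1qc, C1ra, C1s1, C2, C3, C4b and C7, taken by name from the 36333 genes of an RNA-seq table. All 9 were among the 13080 genes that passed the filter on low values, which asked for 1 TPM (transcripts per 1000000) or more in 4 or more of the 8 mice. Ventral prostate lobes came from 4 hSKP2-KI and 4 wild-type (WT) male mice, all 12 months old and on the FVB/N background, with one library per mouse. In hSKP2-KI mice the coding sequence of human SKP2, preceded by a P2A self-cleaving peptide, was inserted into exon 1 of the endogenous mouse probasin gene, an X-linked gene whose promoter is active in prostate epithelium. SKP2 is the substrate-recognition subunit of a ubiquitin ligase that marks cell cycle inhibitors for degradation. The founder line of the sequenced mice is not given in the sources used here. The comparison asks how the transcriptome of a prostate carrying human SKP2 in its epithelium differs from that of a WT prostate, and here what it shows for the complement cascade.

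Complement is a proteolytic cascade of innate immunity. In the classical pathway C1q binds antibody or altered surfaces and activates the proteases C1r and C1s, which cleave C4 and C2 to form a convertase for C3, and the terminal components, C7 among them, then assemble into the membrane attack complex. Hepatocytes make most circulating components, whereas C1q is made chiefly by macrophages and dendritic cells, and fibroblasts, endothelium and epithelium are known to make C1r, C1s, C3, C4 and other components locally. FVB/N mice, the strain label of both genotypes, are known to lack functional C5, encoded by Hc.

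The 3 C1q genes are neighbours on mouse chromosome 4, C1ra and C1s1 lie 6903 bases apart on chromosome 6, C2, C4b and C3 are on chromosome 17, and C7 is on chromosome 15. RefSeq promoter windows of the GRCm38.p6 build, covering 250 bases before and 50 bases from the annotated start, were matched for 6 of the 9 genes, and C1qa, C2 and C4b had no entry. The windows of C1qb, C1qc and C3, genes that varied closely together among the mice, and of C7, which varied apart from them, are printed 5′ to 3′ on the strand of the gene, with the motif letters found on either strand in capitals. All 4 genes are on the minus strand, and the windows are C1qb at chr4:136886151-136886450, C1qc at chr4:136892865-136893164, C3 at chr17:57228087-57228386 and C7 at chr15:5063724-5064023.
C1qb: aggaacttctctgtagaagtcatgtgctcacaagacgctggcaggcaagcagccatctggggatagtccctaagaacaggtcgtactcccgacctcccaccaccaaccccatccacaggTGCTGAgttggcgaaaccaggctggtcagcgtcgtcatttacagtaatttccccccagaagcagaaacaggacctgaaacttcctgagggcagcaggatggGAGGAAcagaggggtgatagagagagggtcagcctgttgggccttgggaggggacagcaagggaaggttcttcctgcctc
C1qc: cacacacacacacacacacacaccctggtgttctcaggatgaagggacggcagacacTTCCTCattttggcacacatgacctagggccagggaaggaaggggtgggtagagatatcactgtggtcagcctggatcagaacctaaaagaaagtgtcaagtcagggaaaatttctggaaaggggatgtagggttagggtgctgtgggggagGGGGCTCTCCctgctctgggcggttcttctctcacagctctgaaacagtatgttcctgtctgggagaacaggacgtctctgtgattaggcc
C3: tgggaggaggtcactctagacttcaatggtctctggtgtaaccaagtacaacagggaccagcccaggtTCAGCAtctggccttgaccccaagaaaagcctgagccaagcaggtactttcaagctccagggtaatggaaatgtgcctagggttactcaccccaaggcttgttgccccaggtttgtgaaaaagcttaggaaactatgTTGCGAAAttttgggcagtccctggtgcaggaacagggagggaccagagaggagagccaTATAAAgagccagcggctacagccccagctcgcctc
C7: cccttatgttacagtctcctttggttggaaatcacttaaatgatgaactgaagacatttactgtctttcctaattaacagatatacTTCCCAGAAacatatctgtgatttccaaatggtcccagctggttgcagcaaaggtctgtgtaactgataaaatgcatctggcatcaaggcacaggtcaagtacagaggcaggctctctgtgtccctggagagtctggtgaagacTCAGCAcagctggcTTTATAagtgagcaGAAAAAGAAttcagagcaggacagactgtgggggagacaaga

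The letters searched were GAGGAA (the core bound by the myeloid factor PU.1), TGCTGA (a MAF half-site), TTGCNNAA (C/EBP), TTCNNNGAA (the GAS element), GAAANNGAA (an interferon-stimulated response element), TGANTCA (AP-1), an NF-kB consensus and TATAAA. The C1qb window held the PU.1 core from 30 bases before the start (position -30) and a MAF half-site at -131, and the C1qc window held the PU.1 core in reverse at -193 and an NF-kB match at -41. The C3 window held a C/EBP match at -45, a reverse MAF half-site at -182 and TATAAA at position 15 from the start, counted from 1 at the first transcribed base. The C7 window held GAS letters at -164, interferon-response letters at position 9, a reverse MAF half-site at -20 and a reverse TATAAA at -6. Windows of C1ra and C1s1 are not printed. That of C1ra held the PU.1 core in reverse at position 45, a reverse C/EBP match at 17 and GAS letters at 33. The first C1s1 window held a reverse C/EBP match at -242, and the second held none of the letters searched. Such letters are common: of 32851 promoter windows of the same length, 28.3% held the PU.1 core, 19.5% the MAF half-site, 13.6% TATAAA, 10.8% the C/EBP letters, 8.56% the interferon-response letters, 8.30% the GAS letters, 7.81% the AP-1 letters and 4.51% the NF-kB consensus. The matches describe the reference sequence and are not evidence of binding.

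The secretory products, spermine-binding protein (Sbp), its homologue Sbpl and the protease inhibitor Spink1, set the scale of the libraries. They took 32.9% ± 1.01 (SD, n = 4) of all TPM in hSKP2-KI and 43.1% ± 2.48 (SD, n = 4) in WT, and their abundance marks the tissue as ventral prostate, while 4 seminal vesicle genes summed to at most 0.656 TPM. Because TPM has a fixed total, the other genes shift with that share, and the log2 fold changes of all tested genes had a median of 0.23. Genotype differences are therefore also given after median-ratio scaling, which sets that median to -0.01. The methods give one nominal sequencing depth for all libraries, the depth reached by each is not in the TPM, and in bulk tissue more RNA per cell cannot be told apart from more cells of a type.

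All 9 complement genes were higher in hSKP2-KI ventral prostates in the TPM as deposited (limma on log2(TPM + 1), Benjamini-Hochberg adjusted p under 0.05), against 32.7% of all tested genes called higher and 1.23% called lower. Their median log2 fold change was 0.94 beside 0.23 for all genes, and the ratio of mean TPM, hSKP2-KI over WT, ran from 1.76 for C1s1 to 2.45 for C7. After median-ratio scaling 1 of the 9, C2, passed the test, against 6.92% of all genes called higher and 4.25% called lower. The log2 fold changes of all 9 were still above 0, with a median of 0.69 beside -0.01 for all genes. Summed over the 9 genes, TPM ran from 301 to 606 in hSKP2-KI and from 141 to 271 in WT, so the groups did not overlap on the scale as deposited. Median-ratio scaling divides hSKP2-KI values by 1.07 to 1.12 and WT values by 0.828 to 0.987, which brings these sums closer together.

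**Figure D1:**
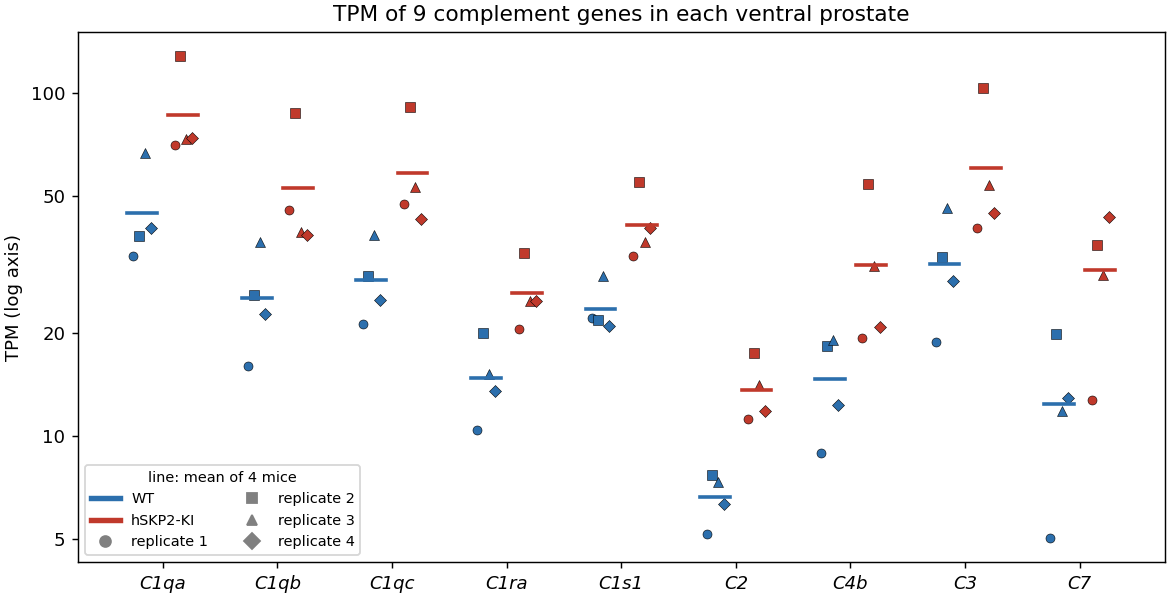
TPM of the 9 complement genes on a log axis, with WT in blue and hSKP2-KI in red, a marker shape for each replicate and a line at the mean of 4 mice. The genotypes did not overlap for 7 genes, replicate 2 was the highest hSKP2-KI mouse for every gene except C7, and WT replicate 1 was the lowest WT mouse for every gene except C1s1.

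The C1q chains form the recognition part of the cascade, and each C1q molecule is built from A, B and C chains encoded by C1qa, C1qb and C1qc. C1qa (chromosome 4, 136895916 to 136898844 in GRCm38.p6) had TPM of 70.4, 128, 73.4 and 73.9 in hSKP2-KI replicates 1 to 4 and 33.4, 38.3, 66.8 and 40.4 in WT replicates 1 to 4. C1qb (chromosome 4, 136880126 to 136886200) had 45.5, 87.5, 39.4 and 38.5 TPM in hSKP2-KI and 15.98, 25.7, 36.7 and 22.7 in WT. C1qc (chromosome 4, 136889801 to 136892936) had 47.3, 90.6, 53.0 and 42.9 TPM in hSKP2-KI and 21.1, 29.3, 38.6 and 24.8 in WT. For each chain every hSKP2-KI mouse was above every WT mouse, hSKP2-KI replicate 2 stood highest, and WT replicate 3 came close to the lowest hSKP2-KI mice. The log2 fold change was 0.94 for C1qa (SE 0.23, adjusted p = 0.0122), 1.00 for C1qb (SE 0.28, adjusted p = 0.0204) and 0.98 for C1qc (SE 0.23, adjusted p = 0.0106). On the median-ratio scale the values were 0.67, 0.74 and 0.72, with adjusted p of 0.0926, 0.114 and 0.0728, and none was called. C1qb also lost its call without WT replicate 1 (0.81, adjusted p = 0.0593).

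The proportions of the chains varied little among the mice. C1qa made up 41.0% to 47.6% of the summed C1q TPM, C1qb 22.7% to 28.6% and C1qc 27.2% to 32.0%, over the 8 mice. The mean share of C1qa was 44.2% ± 2.50 (SD, n = 4) in hSKP2-KI and 45.3% ± 2.94 (SD, n = 4) in WT, a gap smaller than the spread within either genotype. These shares do not depend on the scaling, since a common factor cancels.

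C1r and C1s are the serine proteases carried by C1q, encoded by C1ra (chromosome 6, 124512621 to 124523440) and C1s1 (chromosome 6, 124530344 to 124542392). C1ra had TPM of 20.5, 34.2, 24.7 and 24.8 in hSKP2-KI and 10.4, 20.02, 15.2 and 13.5 in WT, so the lowest hSKP2-KI mouse was just above WT replicate 2. C1s1 had 33.4, 55.0, 36.6 and 40.3 TPM in hSKP2-KI and 22.0, 21.8, 29.3 and 20.9 in WT, where WT replicate 3 stood apart from the other 3 WT mice and still lay below every hSKP2-KI mouse. The log2 fold changes were 0.79 for C1ra (SE 0.19, adjusted p = 0.0117) and 0.78 for C1s1 (SE 0.15, adjusted p = 0.00548), the smallest of the 9 genes. Neither was called on the median-ratio scale, where C1ra was at 0.53 (adjusted p = 0.0649) and C1s1 at 0.51 (adjusted p = 0.0672). The ratio of C1s1 to C1ra TPM was 1.48 to 1.63 in the 4 hSKP2-KI mice and 1.09 to 2.12 in the 4 WT mice.

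C1ra and C1s1 each have a near-identical copy on chromosome 6, C1rb and C1s2, so their reads could be split in counting and their values are uncertain to that extent. C1rb had 5.47, 1.57, 0.451 and 0.754 TPM in hSKP2-KI and at most 0.504 in WT. Summed with its copy, each gene kept its call on the TPM as deposited, at 0.88 for C1ra (adjusted p = 0.00626) and 0.80 for C1s1 (adjusted p = 0.00393) on the log2 scale.

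C2 encodes the protease subunit of the classical C3 convertase (chromosome 17, 34862602 to 34882100). Its TPM was 11.2, 17.5, 14.1 and 11.8 in hSKP2-KI and 5.17, 7.67, 7.35 and 6.33 in WT, with a clear gap between the highest WT and the lowest hSKP2-KI mouse and little spread within a genotype. The mean was 13.6 ± 2.83 TPM (SD, n = 4) against 6.63 ± 1.13 (SD, n = 4), and the log2 fold change was 0.93 (SE 0.15, adjusted p = 0.00263). C2 was the least abundant of the 9 genes and the one called under every scaling, at 0.69 on the log2 scale after median-ratio scaling (adjusted p = 0.0137). The adjusted p was 0.0164 after quantile normalization and 0.0181 with the 20 most abundant genes left out of the total. It also kept its call whichever single mouse was left out, with a largest adjusted p of 0.00795. C2 ends 87 bases from Cfb, which encodes its homologue of the alternative pathway, factor B.

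C4 and C3 carry an internal thioester by which their activated fragments bind covalently to surfaces, and C3 is where the pathways meet. C4b (chromosome 17, 34728139 to 34743902) had TPM of 19.4, 54.2, 31.4 and 20.8 in hSKP2-KI and 8.93, 18.3, 19.0 and 12.3 in WT, so hSKP2-KI replicate 1 was only just above WT replicate 3. C3 (chromosome 17, 57203967 to 57228136) had 40.4, 104, 53.7 and 44.5 TPM in hSKP2-KI and 18.7, 33.3, 46.2 and 28.2 in WT, and the genotypes overlapped, with 2 of 4 hSKP2-KI mice above all WT mice. The log2 fold changes were 0.99 for C4b (SE 0.31, adjusted p = 0.0325) and 0.88 for C3 (SE 0.30, adjusted p = 0.0440). C4b lost its call without any one of hSKP2-KI replicate 2 (0.69), hSKP2-KI replicate 3 (0.95), WT replicate 1 (0.79) and WT replicate 4 (0.93), where its adjusted p was 0.0628 to 0.0931. C3 lost its call without any one of hSKP2-KI replicates 2 (0.59), 3 (0.90) and 4 (0.99) and WT replicates 1 (0.66), 2 (0.93) and 4 (0.85), where its adjusted p was 0.0504 to 0.124. On the median-ratio scale C4b was at 0.74 (adjusted p = 0.151) and C3 at 0.62 (adjusted p = 0.214). The ratio of C3 to C4b TPM lay between 1.71 and 2.43 in all 8 mice. C4b has a near-identical copy, C4a, listed at 0.221 to 0.568 TPM in the 8 mice, and the sum of both gave the same log2 fold change of 0.99 (adjusted p = 0.0307).

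C7 is the terminal component that anchors the growing membrane attack complex to lipid (chromosome 15, 4987750 to 5063773). It had TPM of 12.7, 35.95, 29.5 and 43.4 in hSKP2-KI and 5.05, 19.9, 11.8 and 12.9 in WT. hSKP2-KI replicate 1 fell within the WT range, the other 3 hSKP2-KI mice were above all WT mice, and the highest was replicate 4, not replicate 2. Its log2 fold change of 1.23 was the largest of the 9 genes and also had the widest 95% interval, 0.36 to 2.11 (SE 0.40, adjusted p = 0.0359). The call was lost without any one of hSKP2-KI replicates 2 (1.11), 3 (1.20) and 4 (1.02) and WT replicates 1 (0.89), 3 (1.25) and 4 (1.29), where the adjusted p was 0.0539 to 0.0928. On the median-ratio scale C7 was at 0.98 (adjusted p = 0.126).

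On the TPM as deposited 7 of the 9 genes did not overlap between genotypes, C3 and C7 being the exceptions, where 34.0% of all tested genes were higher without overlap. After median-ratio scaling only C2 was free of overlap, where 10.3% of all tested genes were, and C1qa then ran from 65.7 to 115 in hSKP2-KI and from 38.8 to 74.7 in WT. Leaving out WT replicate 1, which had the lowest value for 8 of the 9 genes, left 5 of the 9 called on the TPM as deposited, and leaving out hSKP2-KI replicate 2 left 6. Calls fell over all 13080 tested genes as well, from 4272 called higher with all mice to 2839 and 2919 in these runs.

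**Figure D2:**
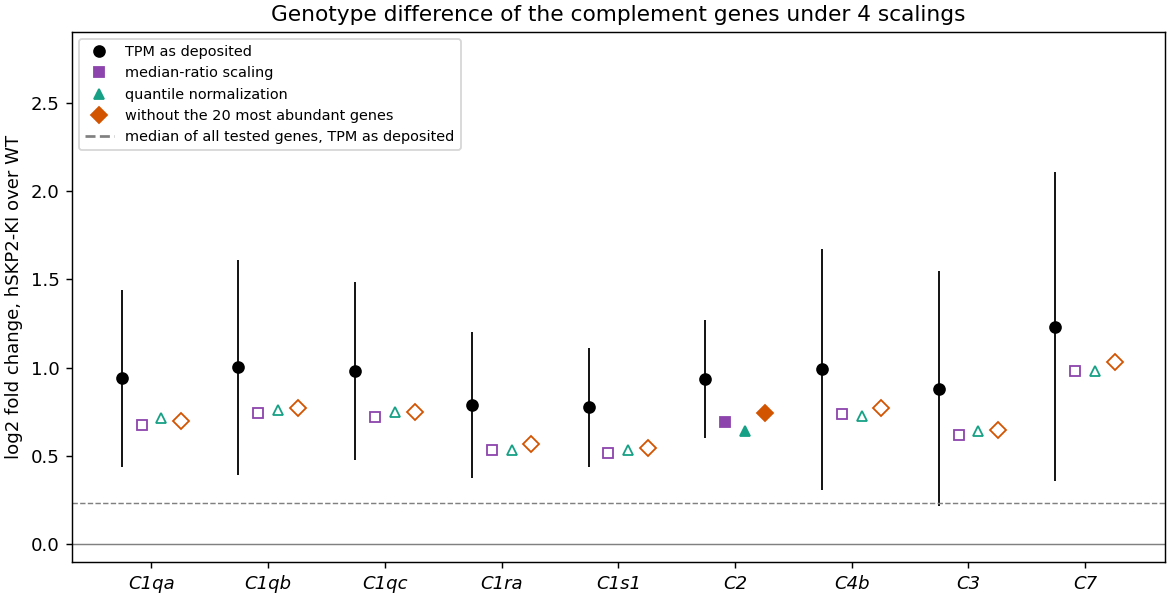
Log2 fold change of each complement gene, hSKP2-KI over WT, under 4 scalings, with filled symbols for an adjusted p under 0.05 and the 95% interval drawn for the TPM as deposited. Every symbol is above 0, all 9 circles are filled, and C2 is the gene with every symbol filled. The dashed line marks the median of all tested genes, 0.23.

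Ranked by mean TPM over the 8 mice, C1qa (65.5) stood above C3 (46.1), C1qc (43.5), C1qb (39.0), C1s1 (32.4), C4b (23.0), C7 (21.4), C1ra (20.4) and C2 (10.1). C1ra and C2 were the neighbours in that order that did not overlap in either genotype. C1s1 and C4b did not overlap in WT but did in hSKP2-KI, and the other 6 pairs of neighbours overlapped in both. Taken by genotype, the first 5 places and the last were held by the same genes, and the order between them was C1ra (14.8), C4b (14.6) and C7 (12.4) in WT and C4b (31.4), C7 (30.4) and C1ra (26.04) in hSKP2-KI. Within single mice C1qa was above C3 in 8 of 8 and C1s1 above C4b in 8 of 8, whereas C7 was above C1ra in 3 of 8.

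The 9 genes also varied together among mice of the same genotype. After the genotype means were subtracted from log2(TPM + 1), Pearson's r over the 8 mice was 0.93 to 0.96 for pairs of C1q chains, 0.94 to 0.99 for pairs of C2, C3 and C4b and 0.98 for C1qc with C3. C1ra and C1s1, the paired proteases, had an r of 0.56. C7 was the least like the rest, with 0.33 to 0.38 to the C1q chains and its highest value, 0.82, to C1ra. Without hSKP2-KI replicate 2 the C1q pairs ranged from 0.86 to 0.92 and all 36 pairs from 0.22 to 0.99. All values of a mouse come from one library and share its total, and these correlations are descriptions.

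**Figure D3:**
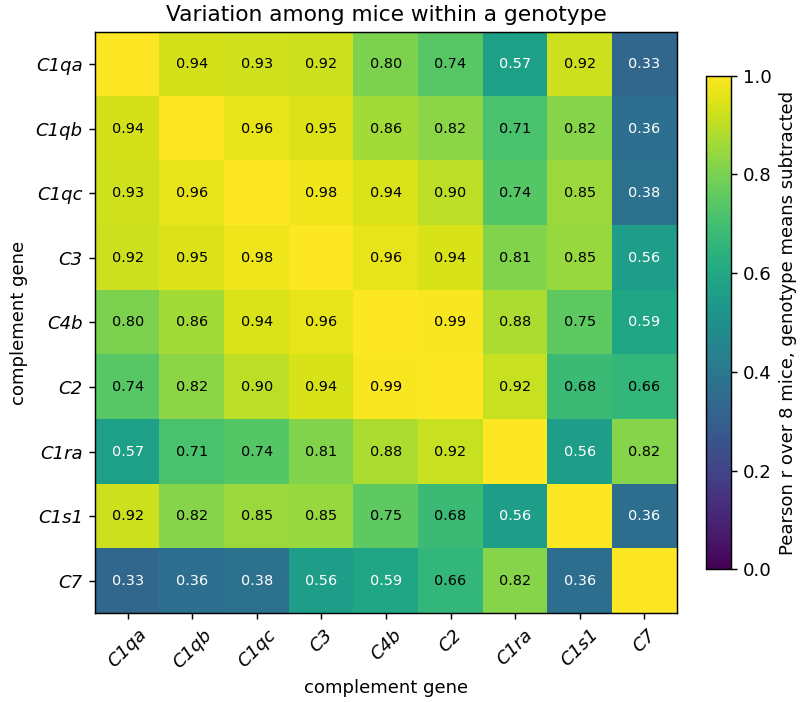
Pearson's r of log2(TPM + 1) for the 36 pairs of complement genes over 8 mice, after the mean of each genotype was subtracted, from dark (0) to yellow (1). The C1q chains, C3, C4b and C2 form a block of high values, and C7 has the lowest row, from 0.33 with C1qa to 0.82 with C1ra.

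Among 9556 other genes with a mean TPM of at least 5, those whose variation among mice was most like that of the members were found in the same way. They were Pld4 (r 0.96) for C1qa, Laptm5, a lysosomal membrane protein of blood cells (0.96), for C1qb, and Unc93b1, which carries nucleic acid-sensing Toll-like receptors to endosomes (0.99), for C1qc, whose list also held the lysozyme gene Lyz2 (0.97). For C3 the closest was Lcp1, the leukocyte actin-bundling plastin (0.98), and for C2 and C4b it was Plod1, a collagen lysyl hydroxylase (0.99 for each), with the collagen gene Col14a1 and Lcp1 also at 0.99 for C4b. For C1ra it was Lrpprc (0.99), with the growth factor-binding Igfbp5 among its 3 closest (0.98), for C1s1 the lysosomal protease gene Ctsl (0.97), and for C7 Hps5 (0.99). Each is the top of a search over many genes with 8 mice, so high values arise readily.

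Markers of the cell types that make complement were set beside the members. Beside each count of markers that rose stand the shares of all tested genes called higher, 32.7% on the TPM as deposited and 6.92% after median-ratio scaling. Of 10 macrophage markers, 9 passed the filter and 6 rose on the TPM as deposited (Cd68, Csf1r, Mrc1, Lyz2, Tyrobp and Ctss), none after median-ratio scaling, and their sum ran from 231 to 735 TPM in hSKP2-KI and from 104 to 209 in WT. The highest sum was in hSKP2-KI replicate 2, as for 8 of the 9 complement genes. Mertk, a macrophage receptor for apoptotic cells, had means of 13.3 and 13.6 TPM in hSKP2-KI and WT. Of 9 fibroblast markers all rose, led by Lum (log2 fold change 1.81, and 1.56 after median-ratio scaling) and Dpt (1.27 and 1.01), and 4 were still called after median-ratio scaling, with sums of 871 to 1538 TPM in hSKP2-KI and 472 to 672 in WT. The rise was not particular to fibroblasts, since all 5 smooth muscle markers rose too, and 2 were still called after median-ratio scaling. Of 8 hepatocyte markers none passed the filter, the fibrinogen genes Fga, Fgb and Fgg were at 0 in all mice, and the sum was at most 1.49 TPM. All 5 neutrophil and all 4 dendritic cell markers were also under the filter, with sums of at most 5.90 and 3.38 TPM. Other cells that can make complement components were also measured. Of 5 endothelial markers 4 rose on the TPM as deposited and 1 after median-ratio scaling. Of general epithelial markers 2 of 6 were called higher, a share near the 32.7% of all tested genes, and 0 after median-ratio scaling, and of basal epithelial markers 2 of 4 and then 0. All 5 markers of proximal luminal epithelium rose, with a median log2 fold change of 1.86, and 4 were called after median-ratio scaling. The part of these cells in the complement differences was not tested.

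The mean log2(TPM + 1) of the C1q chains minus that of the macrophage markers was 1.89 ± 0.14 (SD, n = 4) in hSKP2-KI and 1.72 ± 0.09 (SD, n = 4) in WT, with ranges of 1.74 to 2.07 and 1.64 to 1.85 that overlapped. For C3 the same difference was 1.76 ± 0.10 and 1.69 ± 0.16 (SD, n = 4 each), and for C7 minus the fibroblast markers it was -1.17 ± 0.65 and -1.37 ± 0.53. Over the 8 mice, with genotype means subtracted, r to the macrophage mean was 0.99 for C3, 0.98 for C1qc, 0.97 for C4b, 0.94 for C2 and for C1qb, 0.92 for C1qa, 0.87 for C1s1, 0.79 for C1ra and 0.52 for C7. The r to the fibroblast mean was lower for 7 of the 9 genes, at 0.91 for C2, 0.89 for C4b, 0.84 for C3, 0.79 for C1qc, 0.74 for C1qb and 0.63 for C1qa and C1s1, and higher for C1ra (0.86) and C7 (0.63). All of these values include hSKP2-KI replicate 2, which had the highest macrophage mean (4.81) and fibroblast mean (6.62) of the 8 mice. They may rest largely on that mouse. The part of macrophage and fibroblast numbers in the genotype differences was not tested.

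**Figure D4:**
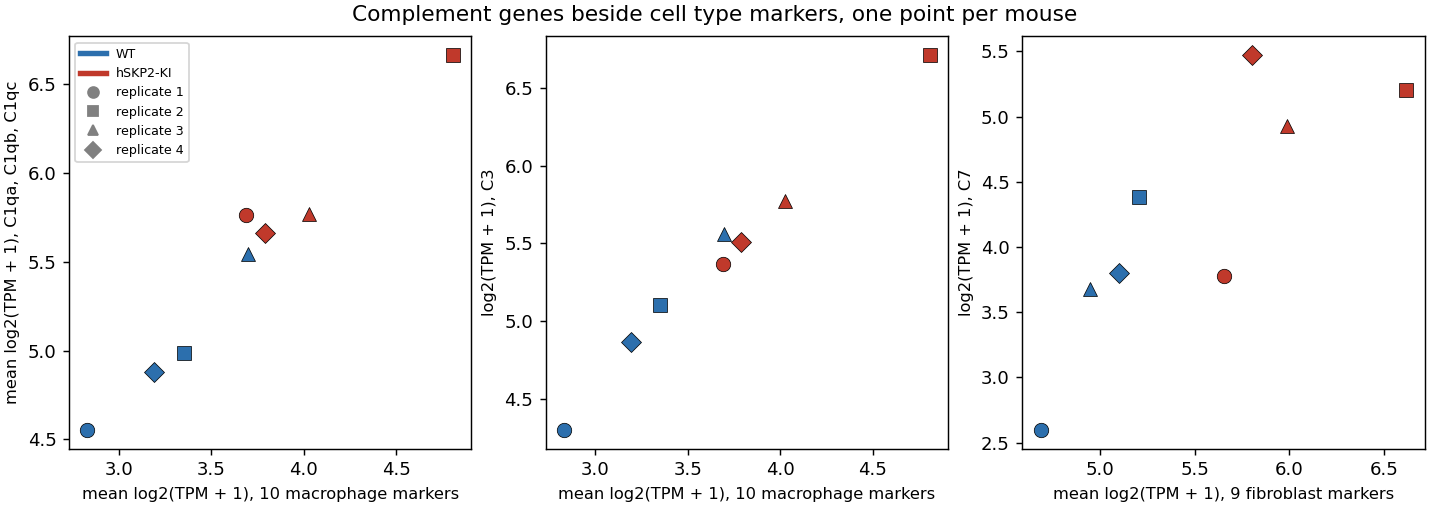
Mean log2(TPM + 1) of the C1q chains (left) and log2(TPM + 1) of C3 (middle) against the mean of 10 macrophage markers, and log2(TPM + 1) of C7 against the mean of 9 fibroblast markers (right), one point per mouse, WT in blue and hSKP2-KI in red. In the left and middle panels the 8 points lie near one line with hSKP2-KI replicate 2 at the top, and in the right panel they scatter, with the highest C7 value in hSKP2-KI replicate 4.

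Of 52 other complement genes in the table, 23 passed the filter, and on the TPM as deposited 13 were higher, 1 was lower and 9 were not called. Of all tested genes 32.7% were called higher and 1.23% lower. After median-ratio scaling 6 were higher (Fcna, Colec12, Masp1, Serping1, Cd55 and Cd59a) and 1 lower (Clu), where 6.92% and 4.25% of all tested genes were. Fcna, Colec12, Cd55, Cd59a and Clu were called under all 4 scalings. The median log2 fold change of the 23 was 0.81, and 0.59 after median-ratio scaling, beside 0.23 and -0.01 for all tested genes. Among the 13 called higher, Masp1, Vsig4 and C1s2 reached 1 TPM in every hSKP2-KI mouse and in few or no WT mice. Their calls are not independent support.

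Of 9 genes listed under the lectin pathway, which reaches C4 and C2 through sugar-binding proteins in place of C1q, 3 passed the filter. All 3 were called higher on both scales, where 32.7% of all tested genes were as deposited and 6.92% after median-ratio scaling. Among the rest, Masp2, a second protease gene, was at most 0.147 TPM in any mouse, and Mbl1, Fcnb and Colec10 were at 0 in all mice. Whether this pathway was more active was not tested. Fcna, the ficolin A gene, was at 13.003, 17.5, 16.7 and 21.4 TPM in WT and at 33.5, 48.1, 58.6 and 49.5 TPM in hSKP2-KI (log2 fold change 1.41, SE 0.17, adjusted p = 0.000823), with a wide gap between the genotypes, and was at 1.15 after median-ratio scaling (adjusted p = 0.0036). The collectin gene Colec12 rose by 1.08 on the log2 scale (adjusted p = 0.00498) and the protease gene Masp1 by 0.68 (adjusted p = 0.00638), the latter from means of 0.739 to 1.81 TPM. After median-ratio scaling they were at 0.83 and 0.53, both called. Masp1 lost its call after quantile normalization (adjusted p = 0.0767). It reached 1 TPM in every hSKP2-KI mouse and in no WT mouse. Masp1 was thus tested only through the genotype where it is high, and its call is not independent support. In the alternative pathway Cfb, encoding factor B, rose by 0.76 (adjusted p = 0.0361), and was not called without hSKP2-KI replicate 2 (0.53) or 3 (0.77) or WT replicate 1 (0.63) or 4 (0.68), nor after median-ratio scaling (0.52, adjusted p = 0.190). Cfd, the adipocyte-rich protease adipsin, was not called (log2 fold change -1.11, adjusted p = 0.244) and ranged from 37.2 to 460 TPM in hSKP2-KI and from 55.9 to 319 in WT. Without hSKP2-KI replicate 4, which had the value of 460 TPM, Cfd was at -1.92 and was called lower (adjusted p = 0.0222). That mouse also had the highest sum of 4 adipocyte markers, 595 TPM. In hSKP2-KI replicates 1 to 4 the sum was 136, 366, 205 and 595 TPM, beside 37.2, 60.7, 45.3 and 460 TPM of Cfd. In WT replicates 1 to 4 the sum was 352, 338, 82.8 and 416 TPM, beside 223, 319, 55.9 and 262 TPM of Cfd. The part of adipocytes in the Cfd values was not tested. Cfp, encoding properdin, was not called (0.67, adjusted p = 0.0828), but passed the test without WT replicate 3 (0.91, adjusted p = 0.0310). After median-ratio scaling Cfd was at -1.37 and Cfp at 0.43, neither called.

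Of the regulators, Serping1, which encodes the inhibitor of C1r and C1s, was the most abundant that rose, with 210 to 365 TPM in hSKP2-KI and 115 to 198 in WT (log2 fold change 0.86, adjusted p = 0.00708), and was at 0.59 after median-ratio scaling (adjusted p = 0.0401). The ratio of Serping1 to the sum of C1ra and C1s1 was 4.29 ± 0.37 (SD, n = 4) in hSKP2-KI and 4.15 ± 0.67 (SD, n = 4) in WT, a gap within the spread. On the cell surface Cd59a, which blocks assembly of the membrane attack complex and has a close paralog, Cd59b, rose from 8.57 to 41.8 TPM in WT to 94.0 to 139 in hSKP2-KI (log2 fold change 2.14, SE 0.37, adjusted p = 0.00349), and was at 1.88 after median-ratio scaling (adjusted p = 0.0203). Cd55, which speeds the decay of C3 convertases, ran from 6.29 to 6.70 TPM in hSKP2-KI and from 2.22 to 4.54 in WT (log2 fold change 0.81, adjusted p = 0.00415), and was at 0.60 after median-ratio scaling (adjusted p = 0.0253).

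Clu, encoding clusterin, a secreted inhibitor of the membrane attack complex and a chaperone, was the one complement gene that fell. Its TPM was 504, 425, 386 and 769 in hSKP2-KI and 2386, 3031, 2738 and 1332 in WT, with no overlap. It fell by 2.17 on the log2 scale (SE 0.26, adjusted p = 0.00074), and it had a log2 fold change of -2.44 on the median-ratio scale (adjusted p = 0.00163).

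**Figure D5:**
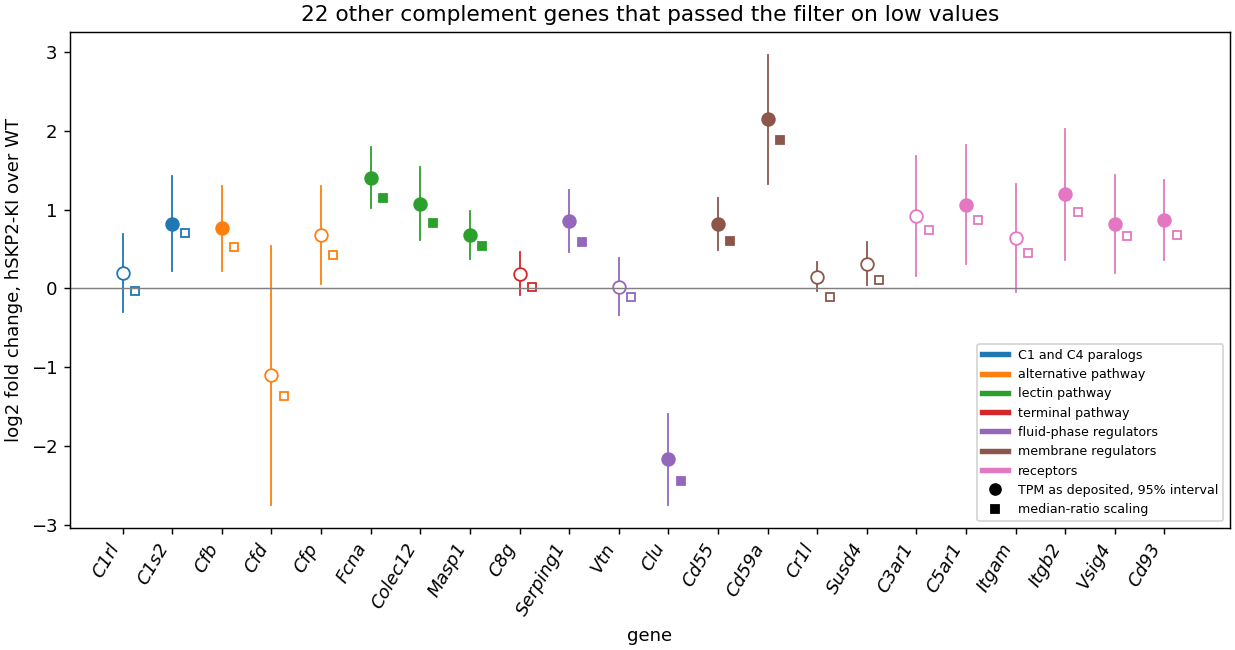
Log2 fold change, hSKP2-KI over WT, of 22 of the 23 other complement genes that passed the filter, coloured by role, with circles and 95% intervals for the TPM as deposited, squares for median-ratio scaling and filled symbols for an adjusted p under 0.05. Clu lies at -2.17 and Cd59a at 2.14, and the receptor genes lie above 0 with open squares.

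Of the receptors for complement fragments and C1q, 6 passed the filter and 4 rose, where 32.7% of all tested genes did: Itgb2, the common chain of the leukocyte integrins that include complement receptors (log2 fold change 1.19, adjusted p = 0.0341), C5ar1 (1.06, adjusted p = 0.0364), Cd93 (0.86, adjusted p = 0.0184) and the macrophage receptor gene Vsig4 (0.81, adjusted p = 0.0466). None was called after median-ratio scaling, where their log2 fold changes were 0.97, 0.87, 0.68 and 0.66 and their adjusted p values ran from 0.0748 for Cd93 to 0.156 for Vsig4. C3ar1 (0.92, adjusted p = 0.0610) and Itgam (0.64, adjusted p = 0.127) were not called, although C3ar1 passed the test without hSKP2-KI replicate 1 (1.11, adjusted p = 0.0408). Of the copies of C1r and C1s, C1s2 rose by 0.82 (adjusted p = 0.0412) at means of 2.13 and 0.856 TPM, and its call was lost in 5 of the 8 runs that left out one mouse. In the same runs Vsig4 lost its call in 6, C5ar1 in 4, Itgb2 in 3 and Cd93 in 1, and C1s2 was not called after median-ratio scaling (0.70, adjusted p = 0.143). Vsig4 reached 1 TPM in every hSKP2-KI mouse and, among WT mice, only in replicate 3 (1.08 TPM). C1s2 reached 1 TPM in every hSKP2-KI mouse and, among WT mice, only in replicates 2 and 4. Both thus passed the filter through the genotype where they are high, and their calls are not independent support. Without hSKP2-KI replicate 2 the log2 fold changes were 0.72 for Itgb2, 0.73 for C5ar1, 0.66 for Cd93, 0.49 for Vsig4, 0.53 for C3ar1 and 0.35 for Itgam.

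The other terminal components were at or near the floor of the table. Hc, which encodes C5, was at most 0.0690 TPM, C6 ran from 0.411 to 1.60 TPM, and C8a was listed at no more than 0.0438 TPM in any mouse, whereas C7 reached 43.4. C8g was the one other terminal gene that passed the filter, and it was not called (log2 fold change 0.19, adjusted p = 0.237), and was at 0.02 after median-ratio scaling and -0.11 after quantile normalization.

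Of 11 genes for transcription factors that act on the letters searched in the promoters, all passed the filter and 7 rose on the TPM as deposited, where 32.7% of all tested genes did, and none after median-ratio scaling. Among them, in order of adjusted p, were Irf1 (log2 fold change 0.34, adjusted p = 0.0155), Rela (0.32, adjusted p = 0.0175), Cebpd (0.49, adjusted p = 0.0188), Nfkb1 (0.26, adjusted p = 0.0190) and Stat3 (0.33, adjusted p = 0.0307). The median of all tested genes was 0.23. On the median-ratio scale Irf1 was at 0.08, Rela at 0.06, Cebpd at 0.24 and Stat3 at 0.06, and Nfkb1 at -0.00096 (adjusted p = 0.993), so the direction of Nfkb1 was lost. When single mice were left out, Stat3 lost its call in 5 of 8 runs, and Nfkb1 and Cebpd in 1 each. Spi1, which encodes PU.1, was called on neither scale (0.85, adjusted p = 0.0547, as deposited, and 0.63, adjusted p = 0.222, after scaling). On the TPM as deposited it passed the test without hSKP2-KI replicate 1 (1.00) or 3 (1.03) and was at 0.50 without hSKP2-KI replicate 2.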

How the data were processed

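Poly(A) RNA of ventral prostates from 4 mice of each genotype was sequenced, one library per mouse, and samples were grouped by the genotype in their labels. The authors mapped the reads to the mouse genome in CLC software (version and annotation not given in the sources used here, builds mm10 and GRCm38 per the submitters' processing notes) and deposited TPM values, that is, reads per transcript length scaled to the same total. TPM holds no counts and the methods give only a nominal depth for all libraries, so the depth reached by each is unknown and no counting intervals were computed. The strand setting of the counting is not given.

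The fit used limma (version 3.58.1, R 4.3.3, mean-variance trend) on log2(TPM + 1) of the 13080 genes that reached 1 TPM in 4 or more samples. Adjustment was by Benjamini-Hochberg over all of them, with a threshold of 0.05. Fold changes are on the log2(TPM + 1) scale, which understates low genes. Genes under the filter were compared by a two-sided exact permutation test over 70 assignments, whose smallest p is 0.0286. The limma p-values compare a genotype difference with the spread between mice of a genotype, with the variance of each gene moderated across all tested genes.

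Alternatives were a pseudocount of 0.1, no filter, a floor of 5 on the mean TPM, median-ratio scaling (over 13042 genes), quantile normalization, leaving the 20 most abundant genes out of the total, a replicate block, array quality weights, paralog sums and leaving out each mouse. Median-ratio scaling without hSKP2-KI replicate 2 was chosen after seeing the data. The procedure was tested on simulated data. Named genes were the 9 members, the other complement and transcription factor genes with an adjusted p under 0.05 (others mostly by range and count, with a few not called named after their values were seen), the 3 genes most like each member, and markers. Results for a few of these are not given. The members and lists were chosen with earlier results of these data known. Positions and promoter windows are from RefSeq (GRCm38.p6), which is C57BL/6J and not FVB/N sequence. Figures were drawn with matplotlib.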

Additional observations from a re-analysis of the deposited data

Results flagged for a closer look

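Among 60 groups of 4 values (30 complement and related genes in each genotype), 4 had a single mouse far from the other 3, where chance flags about 1 in 20 groups. C1qa was 128 TPM (127.738) in hSKP2-KI replicate 2 and 70.4 to 73.9 in the other hSKP2-KI mice, and Itgb2 was 27.0 TPM in the same mouse and 5.99 to 7.41 in the others. C1s1 was 29.3 TPM in WT replicate 3 and 20.9 to 22.0 in the other WT mice. Colec12 was 4.81 TPM in WT replicate 1 and 7.84 to 8.10 in the other WT mice.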

How the results depend on the processing

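All 9 complement genes kept a log2 fold change above 0 under every alternative run. Of 9 called higher, 5 were called with no filter on low values (23826 genes tested), 1 each after median-ratio scaling, quantile normalization and TPM without the 20 most abundant genes, 1 after median-ratio scaling with hSKP2-KI replicate 2 left out, and 5 to 9 when single mice were left out. Calls over all genes changed too, from 4272 of 13080 called higher in the main fit to 3255 of 23826 with no filter. They were 3315 of 9569 with a mean TPM of at least 5, 905 of 13080 after median-ratio scaling and 709 after quantile normalization. Without the 20 most abundant genes 892 were called higher, and after median-ratio scaling without hSKP2-KI replicate 2, 571. When single mice were left out 2839 to 4548 were called higher. C3 lost its call in 6 of these 8 runs, C7 in 6, C4b in 4 and C1qb in 1, and the other 5 genes in 0. The 13 other complement genes called higher became 7 with no filter, 7 with a mean TPM of at least 5 (fewer genes tested), 6 after median-ratio scaling, 4 after quantile normalization, 5 without the 20 most abundant genes and 3 after median-ratio scaling with hSKP2-KI replicate 2 left out. They were 7 to 13 when single mice were left out, with 1 to 2 called lower. The 7 transcription factor genes called higher became 0 in limma under all 3 scalings and under median-ratio scaling without hSKP2-KI replicate 2, and 4 to 8 when single mice were left out. Among the members, the called genes and the 6 uncalled complement and transcription factor genes given with a fold change, 2 changed sign: C8g, at -0.11 after quantile normalization, and Nfkb1, at -0.00096 after median-ratio scaling and -0.0098 with hSKP2-KI replicate 2 also left out. The cause of the other changes was not tested. With the replicate block the 9 members stayed called and 15 other complement and 9 transcription factor genes were called, where 4941 of 13080 genes were called higher. The correlations of same-numbered mice were 0.22, -0.11, 0.17 and -0.01. The labels give these mice a shared number and no pairing, and such correlations cannot tell whether they shared a litter or batch. TPM gives no depth, so precision rests on 4 mice per genotype.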

Other observations

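Below the filter on low values, 29 further complement genes were listed, 7 of them at 0 in all mice, and 22 were compared. C4a, C5ar2, which encodes the alternative C5a receptor, and Itgax, an integrin chain of dendritic cells and macrophages, were higher in every hSKP2-KI mouse than in any WT mouse, each with a two-sided exact permutation p of 0.0286, the smallest these 8 mice can give, and 0.21 after adjustment over the 22. Of the genes that passed the filter, 34.0% were higher without overlap. After median-ratio scaling C5ar2 stayed free of overlap, and C4a and Itgax did not. Itgax ran from 0.819 to 5.92 TPM in hSKP2-KI, highest in replicate 2, and from 0.323 to 0.782 in WT.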
